A study of Mus musculus with 20 samples.

Results

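The retinal pigment epithelium (RPE) ion channel genes described here are 8 rows of the deposited table that were chosen by gene symbol: Best1, Best2, Kcnj13, Trpm1, Trpm3, Clcn2, Clcn3 and Cacna1d. All 8 were present among the 24411 genes of the table, and all 8 were among the 18807 genes that passed the filter on low values. RNA-seq was performed on RPE-choroid tissue of C57BL/6 mice in 4 groups of 5 libraries: WT mice and Stra6-/- mice, which lack the vitamin A transporter STRA6, each on a vitamin A sufficient (VAS, 4 IU/g) or a vitamin A deficient (VAD, 0 IU/g) diet. All pups stayed with dams on standard chow until weaning at about 28 days and then received their diet for 12 weeks. By the study's methods, the Stra6-/- mice were on a C57BL/6J background and the WT mice came from the Jackson Laboratory. The Stra6 deletion is present in the whole animal rather than in the RPE alone. The study states that each library held the pooled tissue of both eyecups of 1 mouse, after dispase treatment and peeling of the retina. By that account a group is 5 mice. The labels give neither the animal nor its sex.

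The RPE is a single layer of pigmented cells between the photoreceptors and the choroid. Its ion channels set the membrane potential, carry salt and water from the retina to the choroid, and buffer the potassium and calcium of the space around the photoreceptor outer segments. Potassium channels of the apical membrane and chloride channels of the basolateral membrane work together in this transport, and voltage-gated calcium channels and TRP channels admit calcium for signalling and secretion. Variants of several of these genes cause retinal disease, among them BEST1 in Best vitelliform macular dystrophy, KCNJ13 in Leber congenital amaurosis and TRPM1 in congenital stationary night blindness.

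In the 19 libraries whose reads could be recovered there were between 13331903 and 21878614 reads (median 17790113), and no pair of libraries in a group agreed within sampling noise. Values are gene counts divided by a size factor for each library. The value of the targeted gene was not low under both Stra6-/- labels. Stra6 had a mean of 2591 ± 149 (SD, n = 5) in VAS WT, 986 ± 415 in VAD WT and 629 ± 49.8 in VAS Stra6-/-, but 2163 ± 154 in the libraries labelled VAD Stra6-/-, called below by that label. Whether the deposited row covers the deleted part of Stra6 is not given in the sources used here. Stra6 is expressed in the RPE, and 12 RPE markers described below also rose under that label. Their mean log2 was 2.37 higher there than in VAS Stra6-/- and 3.53 higher than in VAD WT. Stra6 rose by less than this mean in both comparisons. Between the groups labelled Stra6-/- it rose by more than the mean log2 of 8 melanosome genes (11.9 and 13.1). Whether the label is right was not tested. Libraries labelled VAD Stra6-/- held both the female-specific transcript Xist (3570 to 4280) and the Y-linked transcript Ddx3y (741 to 970). In this group, 1 mouse for each library, and so 5 independent animals, rests on the study's statement and was not tested. VAS WT libraries held Ddx3y at 981 to 1193 and Xist at no more than 38.4, whereas VAS Stra6-/- libraries held Xist at 15320 to 18052 and Ddx3y at no more than 1.02. Sex and genotype therefore cannot be told apart in the comparison of the VAS groups. Replicates 2 and 4 of VAD WT stood apart from replicates 1, 3 and 5, with Xist at 10912 and 11767 against 174 to 234. Their Ddx3y values were 75.2 and 80.5, against 1041 to 1133 in replicates 1, 3 and 5. Xist and Ddx3y thus differed between the groups of the other comparisons too, and the part of sex in those comparisons was not tested.

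The defining markers of the RPE were present in every group, and they moved with the groups. The summed value of 12 RPE markers was between 123865 and 141470 in VAS WT, 37801 and 65600 in VAD WT, and 124984 and 131301 in VAS Stra6-/-, and reached 534066 to 583882 under the VAD Stra6-/- label. Rpe65, the isomerase of the visual cycle, had group means of 4178, 2402, 5824 and 44337 in the same order. A sum over 8 markers of surface epithelium and cornea ran the other way, from 354669 to 1032110 in VAD WT and from 20656 to 27713 in the group labelled VAD Stra6-/-, and stood between 531483 and 827617 in the VAS groups. No listed marker of any cell type was at 0 throughout a group. In bulk tissue, fewer cells of a type and less RNA per cell cannot be told apart. The part of these markers in the fold changes below was not tested, and levels relative to the RPE markers are given further on.

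Sequences are shown for Kcnj13, which changed most, and for Trpm1, whose promoters hold matches to the motifs named below. RefSeq promoter windows, from 250 bases before to 50 after a start site in GRCm38.p6, were found for 7 of the 8 genes, all but Best2. Capitals mark the E-box CATGTG (reverse complement CACATG), the palindromic E-box CACGTG, and TAATCC (reverse complement GGATTA). The E-boxes are letters recognised by the pigment cell factor MITF and TAATCC by OTX2, both strands were searched and none of the 3 motifs overlaps another. The Kcnj13 window lies at chr1:87394680-87394979 on the minus strand. The Trpm1 windows lie at chr7:64153585-64153884 and chr7:64185209-64185508 on the plus strand.
Kcnj13: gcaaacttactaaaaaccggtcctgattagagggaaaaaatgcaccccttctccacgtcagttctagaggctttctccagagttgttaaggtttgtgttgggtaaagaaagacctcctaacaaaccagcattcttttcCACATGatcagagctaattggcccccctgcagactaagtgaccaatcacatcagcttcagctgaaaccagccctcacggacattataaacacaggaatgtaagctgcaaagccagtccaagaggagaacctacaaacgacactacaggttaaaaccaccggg
Trpm1 upstream window: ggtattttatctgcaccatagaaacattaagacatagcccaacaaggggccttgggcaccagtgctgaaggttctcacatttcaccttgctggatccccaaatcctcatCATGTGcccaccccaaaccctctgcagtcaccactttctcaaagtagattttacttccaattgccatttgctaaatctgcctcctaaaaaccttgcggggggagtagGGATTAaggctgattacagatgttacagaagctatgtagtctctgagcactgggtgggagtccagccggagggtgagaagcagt
Trpm1 downstream window: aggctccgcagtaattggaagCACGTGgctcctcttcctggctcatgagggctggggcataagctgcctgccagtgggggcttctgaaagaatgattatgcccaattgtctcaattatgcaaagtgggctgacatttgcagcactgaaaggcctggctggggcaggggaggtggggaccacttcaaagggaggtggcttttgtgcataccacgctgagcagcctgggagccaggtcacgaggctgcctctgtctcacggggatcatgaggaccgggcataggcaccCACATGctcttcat

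The Kcnj13 window held 1 E-box that starts at position -112, counted from the start site. In the upstream Trpm1 window the E-box started at -141 and GGATTA at -34, and in the downstream window CACGTG started at -229 and CACATG at 36. Of 32851 promoter windows of the same length, 14.2% held CATGTG, 7.15% held CACGTG and 7.06% held TAATCC. Best1 held TAATCC at -227, and the windows of Trpm3, Clcn2, Clcn3 and Cacna1d held none of these 3 motifs. The nuclear receptor half-site AGGTCA (reverse complement TGACCT), searched too but not capitalised, was at -19 in the downstream Trpm1 window, at -51 in Best1 and at -234 in 1 Trpm3 window, and in 16.3% of all windows. These matches describe letters and not bound sites.

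Both TRPM genes host a microRNA in an intron, on their own strand. Mature miR-211-5p lies within Trpm1 at chr7:64205831-64205852 and miR-204-5p within Trpm3 at chr19:22750610-22750631, and they are shown because they share 1 seed, bases 2 to 8, in capitals.
miR-211-5p: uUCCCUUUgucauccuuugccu
miR-204-5p: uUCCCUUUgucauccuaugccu
The rows of both hairpins were at 0 in all 20 libraries, which were made by oligo(dT) selection and do not measure mature microRNAs.

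Kcnj13 encodes the inward rectifier potassium channel Kir7.1 of the apical RPE membrane. It is annotated at chr1:87386363-87394729 on the minus strand of GRCm38. VAS WT libraries had Kcnj13 values of 1500, 1322, 1370, 1146 and 1392. In VAD WT the values were 569, 912, 472, 846 and 519. VAS Stra6-/- libraries had 1244, 1230, 1384, 1224 and 1282. All VAD WT libraries were therefore below all VAS libraries, and the VAS groups overlapped. Values labelled VAD Stra6-/- were 6335, 6309, 6033, 5778 and 6547, all above every other library.

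Kcnj13 was 0.478 times as high in VAD WT as in VAS WT (log2 fold change -1.07 ± 0.14, SE; limma adjusted p = 1.79e-05). Without replicates 2 and 4 of VAD WT the log2 fold change was -1.37. The group labelled VAD Stra6-/- was 9.66-fold higher than VAD WT (log2 3.27 ± 0.14, limma adjusted p = 2.06e-14) and 4.87-fold higher than VAS Stra6-/- (log2 2.28 ± 0.14, limma adjusted p = 5.62e-12). Between the VAS groups the log2 difference was -0.08 (95% interval -0.36 to 0.21). Of the exon bases of Kcnj13, 49.1% overlap exons of Gigyf2 on the opposite strand, and the strandedness of the libraries is not stated, so reads of this stretch cannot be assigned to 1 gene. Gigyf2, a regulator of translation, had means of 997, 1077, 1165 and 691 in VAS WT, VAD WT, VAS Stra6-/- and the group labelled VAD Stra6-/-, so that it was lowest where Kcnj13 was highest.

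**Figure D1:**
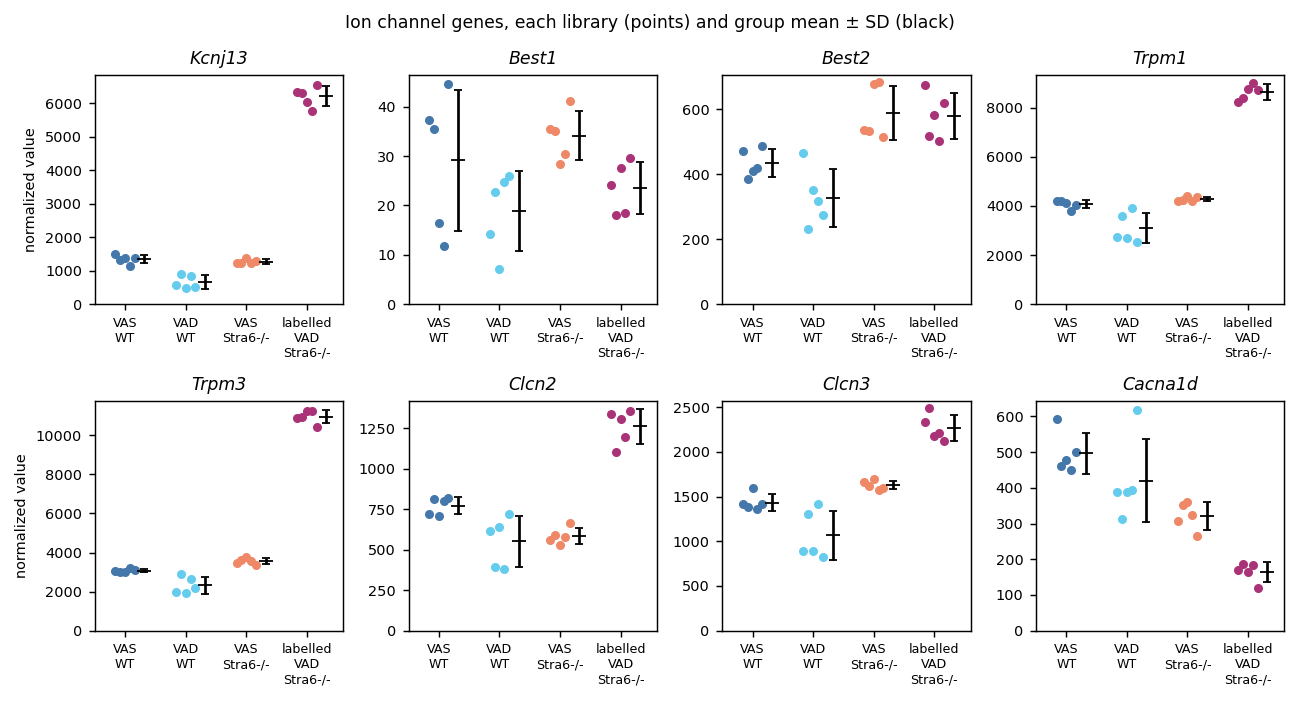
Normalized values (gene count divided by the size factor of the library, linear axis from 0) of the 8 channel genes in each of the 20 libraries (coloured points), with the group mean ± SD in black (n = 5). Kcnj13, Trpm1, Trpm3, Clcn2 and Clcn3 are highest in the group labelled VAD Stra6-/-, Cacna1d is lowest there, and the VAD WT points of several genes fall into 2 clusters.

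Trpm1 and Trpm3 encode cation channels of the melastatin TRP family. TRPM1 is the transduction channel of ON bipolar cells and is also made in pigment cells, and TRPM3 is a calcium-permeable channel abundant in RPE and choroid plexus. Trpm1 (chr7:64153835-64269775, plus strand) had values of 4190, 4203, 4103, 3816 and 4061 in VAS WT. In VAD WT it had 2758, 3612, 2684, 3900 and 2544. The highest VAD WT value thus lay just above the lowest VAS WT value. VAS Stra6-/- libraries had Trpm1 at 4203, 4250, 4395, 4204 and 4352. Under the VAD Stra6-/- label they were 8224, 8410, 8780, 9022 and 8739, without overlap with any other group. Trpm1 fell in VAD WT against VAS WT (log2 -0.42 ± 0.09, limma adjusted p = 0.00539) and was 2.83-fold higher in the group labelled VAD Stra6-/- than in VAD WT (log2 1.50 ± 0.09, limma adjusted p = 1.05e-11). Against VAS Stra6-/- the fold was 2.02 (log2 1.01, limma adjusted p = 5.37e-09).

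Of 8 markers of ON bipolar cells, the retinal neurons that use TRPM1, none was higher and 4 were lower in the group labelled VAD Stra6-/- than in VAD WT. Their summed value ranged from 3819 to 5886 in VAD WT and from 2342 to 2798 in the group labelled VAD Stra6-/-. All 8 melanosome genes were higher in the same comparison, with sums of 26507 to 61516 and 184059 to 196944.

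Trpm3 (chr19:22139046-22995410, plus strand) had values of 3072, 3015, 2994, 3212 and 3103 in VAS WT. VAD WT libraries had 1976, 2918, 1937, 2664 and 2185, all below VAS WT. In VAS Stra6-/- the values were 3458, 3606, 3776, 3543 and 3366, all above VAS WT. Those labelled VAD Stra6-/- lay between 10424 and 11263 (median 10948), far above every other library. Trpm3 fell in VAD WT against VAS WT (log2 -0.42 ± 0.09, limma adjusted p = 0.00386). It was 4.75-fold higher in the group labelled VAD Stra6-/- than in VAD WT (log2 2.25 ± 0.09, limma adjusted p = 9.41e-15) and 3.09-fold higher than in VAS Stra6-/- (log2 1.63, limma adjusted p = 1.37e-12). Between the VAS groups the log2 difference of 0.20 did not pass the test (limma adjusted p = 0.0961), although the groups did not overlap. With replicates 2 and 4 of VAD WT left out of the shared estimate of the spread, the same difference had a limma adjusted p of 0.000339.

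The ratio of the Trpm3 value to the Trpm1 value was 0.757 ± 0.050 in VAS WT, 0.758 ± 0.073 in VAD WT and 0.829 ± 0.034 in VAS Stra6-/-. In the group labelled VAD Stra6-/- it was 1.27 ± 0.05, from 1.19 to 1.32. The lowest ratio in that group was above the highest in each other group (0.859), so the 2 genes did not rise by the same factor. The ratio is of normalized values that are not corrected for length.

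Best1 and Best2 encode bestrophins, chloride channels opened by calcium; BEST1 sits in the basolateral RPE membrane, and BEST2 is known from the non-pigmented ciliary epithelium and colon. Best1 (chr19:9985174-10001633, minus strand) was barely detected, with 5 to 50 recovered reads in each library, and ranked 14429 of 24411 genes by mean value. Its group means were 29.1 ± 14.2 in VAS WT, 18.9 ± 8.1 in VAD WT, 34.2 ± 5.0 in VAS Stra6-/- and 23.6 ± 5.2 in the group labelled VAD Stra6-/-. No comparison passed the test, and the groups overlapped in all 4. When only the libraries labelled Stra6-/- were fitted, the log2 difference of -0.53 between those labelled VAD and VAS passed (limma adjusted p = 0.0355). The 95% interval of its log2 difference between the group labelled VAD Stra6-/- and VAD WT ran from -0.40 to 1.21, a range that includes the change of Best2 given next.

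Best2 (chr8:85007202-85014531, minus strand) was more abundant. VAS WT libraries had Best2 values of 472, 385, 410, 419 and 488. VAS Stra6-/- libraries had 535, 532, 677, 685 and 516, all above VAS WT. In VAD WT they were 464, 231, 352, 318 and 274, and in the group labelled VAD Stra6-/- 675, 520, 582, 504 and 621. Both groups labelled Stra6-/- were therefore above both WT groups without overlap. Best2 was 1.35-fold higher in VAS Stra6-/- than in VAS WT (log2 0.43 ± 0.15, limma adjusted p = 0.0344) and 1.81-fold higher in the group labelled VAD Stra6-/- than in VAD WT (log2 0.85 ± 0.15, limma adjusted p = 4.12e-05). Between the groups labelled Stra6-/- the log2 difference was -0.02 (95% interval -0.33 to 0.29). In VAD WT against VAS WT the log2 difference of -0.44 did not pass (limma adjusted p = 0.0690). Of 4 markers of the non-pigmented ciliary epithelium, 3 were higher in the group labelled VAD Stra6-/- than in VAD WT, and in VAS Stra6-/- against VAS WT none was higher and 1 was lower.

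Clcn2 and Clcn3 belong to the ClC family. CLC-2 is a chloride channel of the plasma membrane that is needed for transport across the RPE, and CLC-3 is an exchanger of chloride for protons in endosomes. Clcn2 (chr16:20702964-20717746, minus strand) had values of 719, 813, 710, 798 and 820 in VAS WT. In VAS Stra6-/- they were 559, 594, 532, 579 and 663, all below VAS WT. VAD WT libraries had 618, 392, 641, 381 and 721, with replicates 2 and 4 lowest. Libraries with the VAD Stra6-/- label had 1340, 1103, 1310, 1198 and 1358, all above every other library. Clcn2 was 0.758 times as high in VAS Stra6-/- as in VAS WT (log2 -0.40 ± 0.14, limma adjusted p = 0.0396) and 0.691 times as high in VAD WT as in VAS WT (log2 -0.53 ± 0.14, limma adjusted p = 0.0195). Without replicates 2 and 4 of VAD WT the latter was a log2 change of -0.23 (limma adjusted p = 0.0404). It was 2.36-fold higher in the group labelled VAD Stra6-/- than in VAD WT (log2 1.24, limma adjusted p = 1.61e-07) and 2.15-fold higher than in VAS Stra6-/- (log2 1.11, limma adjusted p = 8.17e-07).

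Clcn3 (chr8:60910389-60983300, minus strand) split VAD WT the opposite way. Its VAD WT values were 889, 1308, 892, 1412 and 824, with replicates 2 and 4 highest and near the VAS WT values of 1414, 1380, 1592, 1359 and 1412. VAS Stra6-/- libraries had 1574 to 1694, and the group labelled VAD Stra6-/- had 2124 to 2487. Clcn3 fell in VAD WT against VAS WT (log2 -0.46 ± 0.12, limma adjusted p = 0.0137; -0.72 without replicates 2 and 4). It was 2.18-fold higher in the group labelled VAD Stra6-/- than in VAD WT (log2 1.12, limma adjusted p = 3.59e-08) and 1.39-fold higher than in VAS Stra6-/- (log2 0.47, limma adjusted p = 0.00145). The difference between the VAS groups was 0.19 on the log2 scale (limma adjusted p = 0.254; 0.00536 without replicates 2 and 4 of VAD WT in the fit).

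Cacna1d encodes the pore of the L-type calcium channel Cav1.3, which in the RPE is tied to calcium entry and secretion and is also made in photoreceptors and neurons. It was the only member that fell past the test in a comparison with the VAD Stra6-/- label when all libraries were fitted. Cacna1d (chr14:30039939-30491455, minus strand) had values of 594, 462, 478, 449 and 499 in VAS WT. VAS Stra6-/- libraries had 306, 352, 360, 324 and 265, all below VAS WT. Libraries with the VAD Stra6-/- label had 170, 186, 164, 183 and 118, below every other library. VAD WT libraries had 388, 312, 387, 394 and 619 and overlapped VAS WT. Cacna1d was 0.648 times as high in VAS Stra6-/- as in VAS WT (log2 -0.63 ± 0.16, limma adjusted p = 0.00495). In the group labelled VAD Stra6-/- it was 0.398 times the VAD WT level (log2 -1.33 ± 0.16, limma adjusted p = 2.88e-07) and 0.509 times the VAS Stra6-/- level (log2 -0.97, limma adjusted p = 1.90e-05). Rod markers were also lower in the group labelled VAD Stra6-/- than in VAD WT, 7 of 8, with sums of 77058 to 89316 and 107272 to 287306. Cone markers were lower too, 5 of 6 in that comparison and 6 of 6 in VAS Stra6-/- against VAS WT. In the latter comparison only 1 of 8 rod markers was lower and none was higher. In the group labelled VAD Stra6-/- against VAS Stra6-/-, 5 of 8 rod markers were lower and none higher, and 4 of 6 cone markers were lower and 2 higher. The part of the photoreceptor markers in the Cacna1d result was not tested.

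Counted by comparison, 3 of 8 genes changed in VAS Stra6-/- against VAS WT, where 26.6% of all genes tested were called (15.9% higher, 10.8% lower): Best2 rose, and Clcn2 and Cacna1d fell. With Trpm3, 4 of 8 had groups that did not overlap, as did 32.5% of all genes. Of the 12 RPE markers none rose and 5 fell in this comparison, 3 of 8 melanosome genes rose, and all 7 skeletal muscle markers rose, with sums of 24224 to 27212 against 9337 to 11101 in VAS WT; their part in the result was not tested. The count of 3 was 5 without replicates 2 and 4 of VAD WT in the fit, and 1 on leaving out replicate 3 or 4 of VAS Stra6-/- or replicate 2 or 4 of VAS WT. In VAD WT against VAS WT, 5 of 8 genes fell and none rose, where 8.78% of all genes were called, 5.5% falling and 3.29% rising. The 5 were Kcnj13, Trpm1, Trpm3, Clcn2 and Clcn3, of which Kcnj13 and Trpm3 did not overlap between the groups (2 of 8, and 6.34% of all genes). The count stayed at 5 without replicates 2 and 4 of VAD WT, but was 1 (Kcnj13) when only the VAS WT and VAD WT libraries were fitted. Of the RPE markers 11 of 12 fell in the same comparison. Best1, Best2 and Cacna1d had log2 differences of -0.27 to -0.56 that did not pass.

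In the group labelled VAD Stra6-/- against VAS Stra6-/-, 5 genes rose and 1 fell (6 of 8, with 53.2% of all genes called, 24.4% higher and 28.8% lower), and against VAD WT 6 rose and 1 fell (7 of 8, with 55.9% called, 26.2% higher and 29.6% lower). All of these had groups that did not overlap, as did 51.3% and 37.4% of all genes. Kcnj13 and Trpm3 also exceeded a log2 fold change of 2 against VAD WT, as did 10.4% of all genes. Most genes were called in both comparisons, so a count of called members says little about the members. Their median log2 fold change was 0.74 against VAS Stra6-/-, where the median of all genes was -0.07, and 1.18 against VAD WT, where it was -0.05. In VAD WT against VAS WT the medians were -0.45 for the 8 genes and 0.00 for all genes. The comparisons with VAD WT and with VAS Stra6-/- share the group labelled VAD Stra6-/-.

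**Figure D2:**
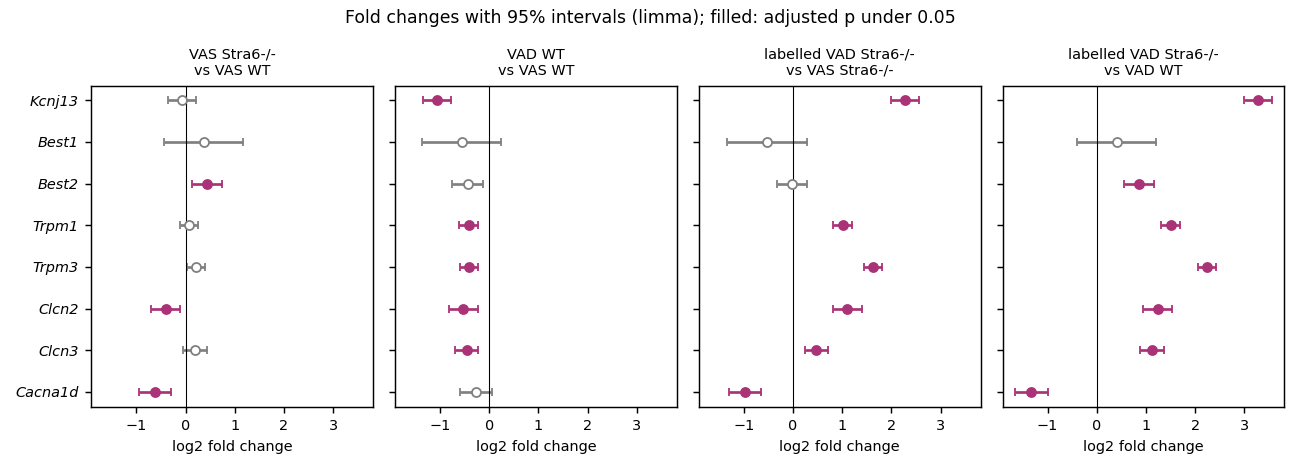
Log2 fold changes (limma on log2(value + 1), horizontal axis) of the 8 channel genes in the 4 comparisons between groups, with 95% intervals; filled points had an adjusted p under 0.05. Kcnj13 has the lowest value in VAD WT against VAS WT (-1.07) and the highest in both comparisons with the group labelled VAD Stra6-/- (2.28 and 3.27), and Best1 has the widest intervals.

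The effect of diet differed between the genotypes as labelled for 6 of 8 genes, where 44.2% of all genes passed the same interaction test (19.5% above and 24.8% below 0). The difference (diet effect under the Stra6-/- labels minus diet effect in WT) was 3.35 ± 0.19 on the log2 scale for Kcnj13, 2.04 ± 0.13 for Trpm3, 1.64 ± 0.20 for Clcn2, 1.43 ± 0.13 for Trpm1 and 0.93 ± 0.16 for Clcn3. For Cacna1d it was -0.70 ± 0.22. The limma adjusted p ranged from 8.95e-12 for Kcnj13 to 0.0135 for Cacna1d. Best1 (0.03) and Best2 (0.42, limma adjusted p = 0.109) did not pass.

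Per kilobase of the longest coding transcript, Kcnj13 had the highest level in VAS WT (1060 ± 102), VAS Stra6-/- (1002 ± 52) and the group labelled VAD Stra6-/- (4882 ± 235). Trpm1 came next in these groups, at 713, 750 and 1512 per kilobase. In VAD WT the levels of Trpm1 (543 ± 107) and Kcnj13 (523 ± 158) overlapped. Trpm3, Clcn3 and Clcn2 followed at 250, 252 and 247 per kilobase in VAS WT, and neighbours among these 3 overlapped. Best2 (197 per kilobase in VAS WT) was above Cacna1d in every group, and Best1 had the lowest mean in every group, at 9.11 to 16.4 per kilobase. In the group labelled VAD Stra6-/- the libraries of Best1 and Cacna1d overlapped. When the length of all exons together was used, Kcnj13 came before Trpm1 in VAD WT too (523 and 210 per kilobase), and the order of the genes between Trpm1 and Cacna1d changed.

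Because the RPE markers themselves moved with the groups, each gene was also set against them, as log2(value + 1) minus the mean log2 of the 12 RPE markers in the same library. That mean differed by -0.06 between VAS Stra6-/- and VAS WT, by -1.22 between VAD WT and VAS WT, by 2.37 from VAS Stra6-/- to the group labelled VAD Stra6-/-, and by 3.53 from VAD WT to it. Exact two-sided permutation tests of 5 libraries against 5, of which the smallest p is 0.00794, were adjusted over 32 tests, and 25 passed. The median log2 fold change of all genes stayed near 0 (-0.07 against VAS Stra6-/-, -0.05 against VAD WT). An unchanged gene would therefore come out lower relative to the markers in the group labelled VAD Stra6-/-, and higher in VAD WT than in VAS WT. The share of all genes that would pass was not computed, so the count of 25 says little about the 8 genes.

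Kcnj13 moved less relative to the RPE markers than in value. Its relative level was -1.82 ± 0.12 in VAS WT, -1.67 ± 0.17 in VAD WT, -1.84 ± 0.08 in VAS Stra6-/- and -1.93 ± 0.04 in the group labelled VAD Stra6-/-. Its difference was 0.15 in VAD WT against VAS WT (exact permutation test, adjusted p = 0.172) and -0.09 in the group labelled VAD Stra6-/- against VAS Stra6-/- (exact permutation test, adjusted p = 0.0586). Against VAD WT it was lower by a small amount (-0.26, exact permutation test, adjusted p = 0.0110). These relative levels depended on the reference: against the mean of the 8 melanosome genes, Kcnj13 was higher in the group labelled VAD Stra6-/- by 1.00 (against VAS Stra6-/-) and 0.82 (against VAD WT), and lower in VAD WT than in VAS WT by a difference of -0.41 (exact permutation tests, adjusted p = 0.0127, 0.0127 and 0.0231).

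The other 7 genes were lower relative to the RPE markers in the group labelled VAD Stra6-/- than in VAD WT, each without overlap (exact permutation test, adjusted p = 0.0110). A gene that did not change in value would be lower in this measure too. The differences were -1.28 for Trpm3, -2.03 for Trpm1, -2.29 for Clcn2, -2.41 for Clcn3, -2.68 for Best2, -3.13 for Best1 and -4.86 for Cacna1d. Against VAS Stra6-/- they ran from -0.75 (Trpm3) to -3.35 (Cacna1d), again without overlap. Against the melanosome genes these differences were smaller. Those of Trpm3 were -0.20 against VAD WT (exact permutation test, adjusted p = 0.264) and 0.34, in the other direction, against VAS Stra6-/- (exact permutation test, adjusted p = 0.0127). The other 6 genes stayed lower and passed in both comparisons, from -0.95 (Trpm1) to -3.78 (Cacna1d) against VAD WT, and from -0.18 (Clcn2) and -0.27 (Trpm1) to -2.26 (Cacna1d) against VAS Stra6-/-. In VAD WT against VAS WT, Trpm1, Trpm3 and Clcn3 were higher relative to the RPE markers without overlap, by 0.80, 0.80 and 0.76 (exact permutation test, adjusted p = 0.0110). So these 3 genes, which fell in value, fell by less than the RPE markers. Against the melanosome genes the differences were 0.23, 0.23 and 0.19 and did not pass. Among the VAS groups, Best2 (0.49), Trpm3 (0.26) and Clcn3 (0.25) were higher and Clcn2 (-0.34) and Cacna1d (-0.57) lower relative to the RPE markers in VAS Stra6-/-, each without overlap (exact permutation test, adjusted p = 0.0110). Against the melanosome genes the 3 higher ones turned lower, Trpm3 to -0.31 and Clcn3 to -0.32 (exact permutation test, adjusted p = 0.0127 for both) and Best2 to -0.081 (exact permutation test, adjusted p = 0.544), and Clcn2 (-0.91) and Cacna1d (-1.14) stayed lower.

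**Figure D3:**
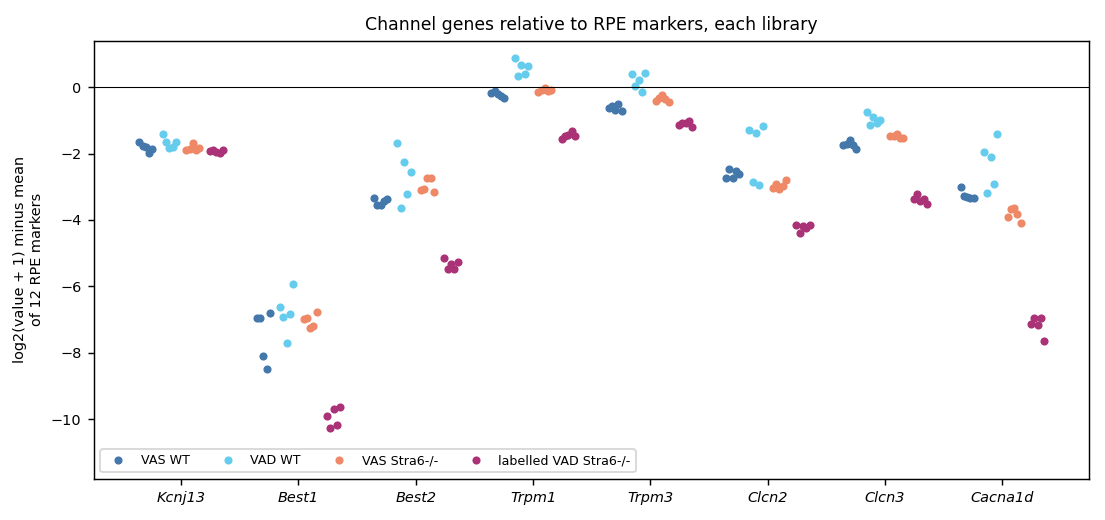
Level of the 8 channel genes relative to the RPE (log2(value + 1) minus the mean log2 of 12 RPE markers in the same library, vertical axis); each point is a library and colours are the 4 groups. Kcnj13 lies near -1.8 in every group, whereas the other 7 genes are lowest in the group labelled VAD Stra6-/-.

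Over the 20 libraries, the genes most like each member by Pearson's r (of 12292 genes with a mean value of at least 100) were described without a test, since the libraries share groups and composition. After subtraction of the group means the values of r were lower for all of these pairs but Best1 with Arid3a. Kcnj13 was most like Trf (transferrin, r = 0.997), Smpd1 (acid sphingomyelinase, r = 0.996) and Clu (clusterin, r = 0.995). Trpm1 was most like Rpe65 (r = 0.995), the melanosomal exchanger gene Slc24a5 (r = 0.994) and the sodium bicarbonate cotransporter gene Slc4a4 (r = 0.994). For Trpm3 the nearest were Tbc1d1, Smpdl3a and Degs1 (r = 0.996, 0.994 and 0.993), for Clcn2 S100a1, Bmp4 and Crhr2 (r = 0.981, 0.975 and 0.975) and for Clcn3 Mfrp, St3gal1 and Lyz2 (r = 0.984, 0.982 and 0.979). Cacna1d was most like Map4k3, Firre and Ddhd1 (r = 0.954, 0.951 and 0.951, but 0.775, 0.611 and 0.593 within groups), and Best2 most like Adam10, Rbm47 and Tuba1c (r = 0.864, 0.856 and 0.854, but 0.512, 0.412 and 0.329 within groups). For the weakly expressed Best1, r was at most 0.759 (Ubfd1), followed by Arid3a and Zxdc.

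The relatives of the 8 genes were described from 6 lists of other channel genes, of which 70 of 73 listed genes were tested. In VAD WT against VAS WT, 3 were higher and 6 lower (3.29% and 5.5% of all genes tested). In VAS Stra6-/- against VAS WT, 5 were higher and 12 lower (15.9% and 10.8% of all genes). In the group labelled VAD Stra6-/- the counts were 10 higher and 30 lower against VAS Stra6-/- (24.4% and 28.8% of all genes). Against VAD WT, 17 were higher and 27 lower (26.2% and 29.6% of all genes), which are also the shares for the lists counted in that comparison below. No difference between these lists and all genes or the 8 members was tested.

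Other voltage-gated calcium channel subunits had the plainest direction, with 12 of 17 lower and none higher in the group labelled VAD Stra6-/- than in VAD WT (median log2 -1.27). Cacna1f, the photoreceptor L-type channel, had a mean of 562 ± 44 there and 5286 ± 1458 in VAD WT (log2 -3.19, limma adjusted p = 6.58e-14), and it was also lower in VAS Stra6-/- than in VAS WT (log2 -1.10, limma adjusted p = 5.78e-06). Cacna1h, a T-type channel, rose in VAD WT against VAS WT (log2 0.93, limma adjusted p = 0.000284), and Cacna1c, the Cav1.2 channel, fell (log2 -0.55, limma adjusted p = 0.00542).

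Among 5 other TRPM channels tested, 3 were lower and 1 higher in the group labelled VAD Stra6-/- than in VAD WT. Trpm6, an epithelial magnesium channel, fell (log2 -2.29, limma adjusted p = 7.57e-07), and Trpm7, its ubiquitous relative, rose slightly (log2 0.34, limma adjusted p = 0.000933). Of 13 other inward rectifier channels, 1 was higher and 1 lower in that comparison, Kcnj14 being the lower one (log2 -0.85, limma adjusted p = 0.000268). Other ClC family members and subunits numbered 4 higher and 2 lower of 8. Of 11 genes listed as other calcium-activated chloride channels (Best3 and the anoctamin genes), 4 were higher and 5 lower. Whether each of them encodes such a channel was not examined. Ano5 rose (log2 1.72, limma adjusted p = 0.00144) and Ano9 fell from 273 to 11.6 (log2 -4.42, limma adjusted p = 8.70e-10).

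Other channels known in RPE numbered 7 higher and 4 lower of 16. Clic6, of the chloride intracellular channel family, rose from a mean of 934 ± 866 to 10003 ± 249 (log2 4.00, limma adjusted p = 4.18e-08). Lrrc8e, a subunit of the volume-regulated anion channel, fell (log2 -3.39, limma adjusted p = 3.85e-06). In VAS Stra6-/- against VAS WT, Lrrc8b of the same family rose from 101 to 446 (log2 2.14, limma adjusted p = 0.000613) and the potassium channel subunit gene Kcne2 fell from 145 to 38.8 (log2 -1.90, limma adjusted p = 3.23e-05).

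**Figure D4:**
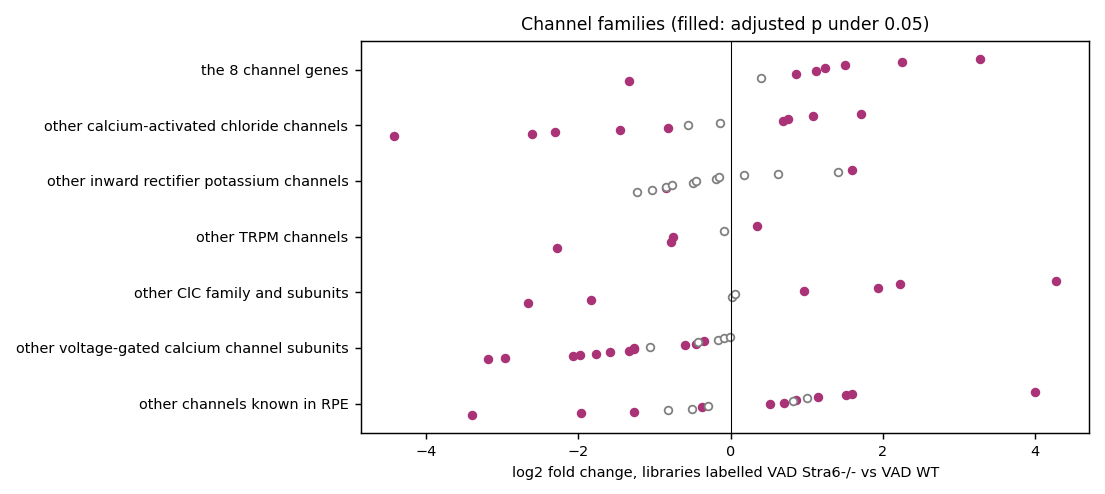
Log2 fold changes (limma, horizontal axis) of the 8 channel genes and of 6 lists of other channel genes in the group labelled VAD Stra6-/- against VAD WT; each point is a gene and filled points had an adjusted p under 0.05. Of the 8 genes 7 lie above 0, whereas no other voltage-gated calcium channel subunit does.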

How the data were processed

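RNA-seq of 20 RPE-choroid libraries, 5 in each of 4 groups taken from the labels, was analysed. Per the labels, reads were aligned with STAR 2.5.3a to GRCm38 (mm10), counted per gene with RSEM 1.2.30 and normalized with DESeq2 1.32.0. The deposited values are a signal, made from the counts of each gene by dividing them by the library's size factor, with no length or log scaling: in 19 libraries values were whole multiples of the value of 1 read, with 100% of values whole within 0.01 of a read. Reads were not claimed for VAD Stra6-/- (as labelled) replicate 1, which entered every limma fit but not the tests on counts. Depth sets counting error only; the lowest member had 5 to 50 reads in a library.

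Genes with at least 5 recovered reads in total (18807 of 24411) were tested with limma 3.58.1 in R 4.3.3 on log2(value + 1), which understates the change of low genes, with all 20 libraries, group means, an intensity trend and Benjamini-Hochberg adjustment; a gene was called at an adjusted p under 0.05. A fold change is the antilog of the fitted log2 difference. The tests were checked on simulated data. Levels relative to 12 RPE markers were compared with exact permutation tests (SciPy 1.17.1, Python 3.11.15). Alternatives were edgeR 4.0.16 and DESeq2 1.42.0 on recovered reads, other scalings, pseudocounts and filters, fits of the compared groups alone, and leaving out libraries. Gene positions came from GENCODE vM21 (GRCm38), and promoter and microRNA sequences from RefSeq. Named genes were the 8 members, Stra6, Rpe65, for each list of other channels the gene with the largest called change in each direction whose groups did not overlap (mean value at least 10), and the 3 genes most like each member; some genes that this rule names are not reported here. Xist, Ddx3y and Gigyf2 were named after their values were seen. The members and the lists were chosen with earlier results of these data known.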

Additional observations from a re-analysis of the deposited data

Results flagged for a closer look

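Of 32 groups of 5 libraries (8 genes in 4 groups), 2 held a library far from the others by Dixon's criterion, and chance gives about 1 in 20 such groups. Clcn3 in replicate 3 of VAS WT had the highest value of its group, 1592, with a gap to the next library of 0.766 of the group's range. Cacna1d in replicate 5 of VAD WT had 619, with a gap of 0.734 of the range.

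The diet effect under the Stra6-/- labels minus that in WT differed from 0 by limma's interaction test for 6 genes, on the log2 scale: Kcnj13 by 3.35 (adjusted p = 8.95e-12), Trpm3 by 2.04 (adjusted p = 2.53e-11), Trpm1 by 1.43 (adjusted p = 1.08e-08), Clcn2 by 1.64 (adjusted p = 7.06e-07), Clcn3 by 0.93 (adjusted p = 7.07e-05) and Cacna1d by -0.70 (adjusted p = 0.0135). The first 5 had a lower mean in VAD WT than in VAS WT and were higher in all 5 libraries labelled VAD Stra6-/- than in VAS Stra6-/-. The libraries labelled VAD Stra6-/- had Stra6 values above those of VAD WT, and whether their label is right was not tested. These differences are therefore between groups as labelled.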

How the results depend on the processing

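Under edgeR, DESeq2, TMM or median-of-ratios scaling, other pseudocounts and filters, no member's call changed. Replicate numbers did not pair the libraries: deviations of 30 same-numbered pairs correlated between -0.134 and 0.0948. With the replicate block, 3, 5, 6, 7 and 6 members were called, in the order VAS Stra6-/- against VAS WT, VAD WT against VAS WT, the libraries labelled VAD Stra6-/- against VAS Stra6-/- and against VAD WT, and the interaction, and no call changed. In fits of the compared libraries alone, the count in VAS Stra6-/- against VAS WT was 5 and that in VAD WT against VAS WT was 1, and Best1 joined the calls in the group labelled VAD Stra6-/- against VAS Stra6-/- (7 called). Without replicates 2 and 4 of VAD WT the former was 5. Without the intensity trend the Clcn2 call in VAS Stra6-/- against VAS WT was lost (adjusted p = 0.0586). The cause was not tested.

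Leaving out 1 library at a time, the counts ranged from 1 to 4, 4 to 6, 6 to 6, 7 to 7 and 6 to 7 in the same order, and relative to the RPE markers from 24 to 26 of 32. The Best2 difference between the groups labelled Stra6-/- ranged from -0.075 to 0.039, the Best1 interaction from -0.26 to 0.30, and the relative level of Kcnj13 between the VAS groups ranged from -0.062 to 0.019.

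Against the melanosome genes, differences between VAS Stra6-/- and VAS WT turned to -0.14 for Best1, -0.081 for Best2, -0.44 for Trpm1, -0.31 for Trpm3 and -0.32 for Clcn3. Kcnj13 turned to -0.41 in VAD WT against VAS WT, and in the libraries labelled VAD Stra6-/- to 1.00 against VAS Stra6-/- and 0.82 against VAD WT. Trpm3 turned to 0.34 against VAS Stra6-/-. With the median of the RPE markers, Kcnj13 turned to 0.12 against VAS Stra6-/-. The cause was not tested. Best1 had 5 to 50 reads in a library, so that counting error is larger for it than for the other members.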
